A study of Mus musculus with 7 samples.

Results

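The receptors that hold hematopoietic progenitors in the bone marrow niche were examined in LSK cells, the lineage-negative mouse marrow cells with Sca-1 and Kit on their surface, among which are stem cells and multipotent progenitors. The set was chosen by gene symbol and comprised 10 of the 24421 genes in the count table, namely the chemokine receptor Cxcr4, the integrin subunits Itga4, Itga5, Itga6, Itgb1 and Itgal, the glycoproteins Cd44 and Selplg, and the receptors Tek and Robo4. RNA-seq had been performed on 7 samples, each of sorted cells from a separate recipient mouse, 4 from recipients of Ddx41+/+ marrow (replicates 1 to 4) and 3 from recipients of Ddx41+/- marrow (replicates 6 to 8). In both groups the donor marrow carried RosaCreERT2, a ubiquitously expressed recombinase that acts once tamoxifen is given, and the Ddx41+/- donors carried 1 floxed Ddx41 allele in addition. The recipients were lethally irradiated BoyJ mice that received donor marrow cells and then 1 mg of tamoxifen on 5 days in each of 2 rounds, and the marrow was taken 8 weeks from transplantation. The labels give neither the age nor the sex of the mice, and they name no donor marker for the sort, so residual recipient cells were not measured. Whether recipients of a group shared a donor is not stated, so the p-values measure the spread between recipients.

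Progenitors home to the marrow and stay there through a small number of receptor and ligand pairs. CXCR4 responds to CXCL12 made by stromal cells, and its signal activates integrins, heterodimers of an alpha and a beta chain that bind VCAM1, fibronectin or laminin. CD44 binds hyaluronan, PSGL-1 (the Selplg product) binds selectins on marrow vessels, TIE2 (the Tek product) binds angiopoietins, and ROBO4 is found on stem cells and endothelium. Loss of these contacts releases progenitors into the blood, and they must be re-formed after a transplant.

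The samples held between 32234499 and 43751290 counts. The targeted gene followed the labels, as Ddx41 was between 92.8 and 106.6 CPM (counts scaled to library size) in Ddx41+/+ samples and between 64.4 and 69.5 CPM in Ddx41+/- samples (log2 fold change -0.54, SE 0.071, edgeR adjusted p = 0.0052). Ddx41+/- replicate 7 stood apart on the first principal component, at 35.7 against at most 0.24 in the other 6 samples. The markers of the sort were present over all samples, with Kit between 427.1 and 505.1 CPM. Ly6a, which encodes Sca-1 and was added to the naming rule afterwards, was between 13.3 and 30.5 CPM. Of a list of 6 LSK genes, 2 were lower and 0 higher in Ddx41+/- samples at an unadjusted p under 0.05. These were Cd34 (727.3 to 830.02 CPM in Ddx41+/+ and 646.7 to 748.9 CPM in Ddx41+/- samples, edgeR adjusted p = 0.403) and Flt3 (221.6 to 264.4 and 164.1 to 243.9 CPM, edgeR adjusted p = 0.355). The shares of all genes were 4.93% lower and 5.7% higher. Of 13 mature neutrophil genes tested, 11 had higher means in Ddx41+/- samples at an unadjusted p under 0.05, beside 5.7% of all genes, and 1 of the 13 (Mmp9) passed at an adjusted p under 0.05, beside 0.217%. The summed level of 13 markers lay between 880.02 and 1432 CPM in Ddx41+/+ samples and between 1523 and 2565 CPM in Ddx41+/- samples.

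All 10 receptor genes were expressed in every sample, with between 196 and 16211 counts, and all passed the filter on low counts. Between genes, levels were compared as CPM per kb of annotated exon. Cxcr4 had the highest level per length, with a mean of 82.9 CPM per kb (72.4 to 93.9 over the 7 samples). Its lowest value, 72.43, was only just above the highest value of the next gene, 72.35. Itgb1 followed at 68.7 (65.6 to 72.4) and Selplg at 63.3 (54.7 to 67.4), and their ranges overlapped, although Itgb1 was above Selplg in 7 of 7 samples. Cd44 at 35.4 and Itgal at 34.5 CPM per kb overlapped as well, with Cd44 above Itgal in 5 of 7 samples. Itga4 was at 22.6 CPM per kb, and Itga5 and Itga6, at 15.1 and 14.8, could not be separated. Tek (2.32) and Robo4 (1.72 CPM per kb) were far below the rest, and the lowest value of Itga6, 13.5 CPM per kb, was above the highest value of Tek, 2.97.

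**Figure D1:**
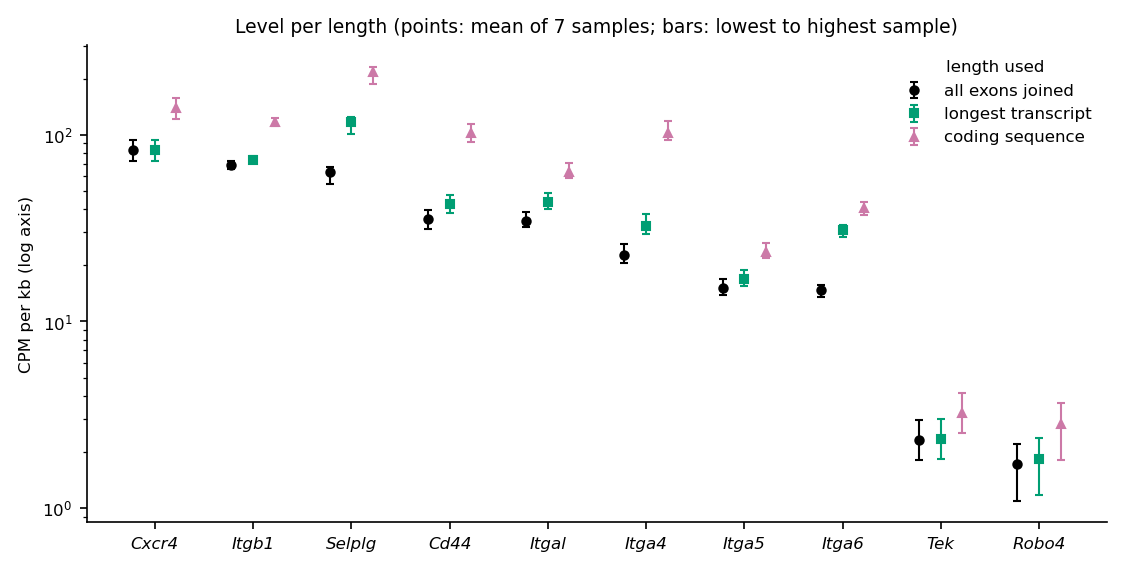
Level of each receptor gene in CPM per kb on a log axis. Points are means of the 7 samples and bars run from the lowest to the highest sample, with the length taken as all exons joined (circles), the longest transcript (squares) or the coding sequence (triangles). Tek and Robo4 are the lowest under each length, whereas Selplg moves from rank 3 to rank 1 with the shorter lengths.

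This order rested in part on the length. With the longest transcript or the coding sequence, Selplg took rank 1 and Cxcr4 rank 2, and 3 of the 10 genes kept their rank under each. The ranges of Cxcr4 and Itgb1 overlapped under each of these lengths. The annotated exons of Itga4 span 13978 bases but its coding sequence holds 3096. In CPM, which takes no account of length, Itga4, Itgb1 and Selplg were among the most abundant of the 13340 genes tested, at percentiles 96.4, 95.7 and 95.5, whereas Tek and Robo4 were at percentiles 32.8 and 30.6.

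None of the receptors passed the test of genotype, and the integrins, Cxcr4, Cd44 and Selplg differed little between Ddx41+/- and Ddx41+/+ LSK cells. With edgeR, 0 of 10 had an adjusted p under 0.05, beside 0.217% of all genes tested (0.0975% as lower in Ddx41+/- samples), and the smallest adjusted p was 0.293 (Robo4). DESeq2 and limma-voom also gave 0 of 10. At an unadjusted p under 0.05 there were 4 of 10 with each of the 3 tools, beside 10.6% of all genes with edgeR. These were Tek and Robo4 with lower means in Ddx41+/- samples, and Itga4 and Itgal with higher means. The genotypes did not overlap for 1 of the 10 genes (Robo4, lower in Ddx41+/- samples), beside 10.1% of all genes (5.21% lower and 4.85% higher). The median absolute log2 fold change was 0.071 over the 10 receptors and 0.11 over all genes tested. For the 8 genes other than Tek and Robo4, each 95% interval of the log2 fold change lay between -0.20 and 0.31.

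The number with an unadjusted p under 0.05 depended on the scaling and on single samples. It was 2 when counts were scaled by library totals only (Robo4 and Tek) and 3 with upper-quartile scaling (without Itgal). It was also 2 without Ddx41+/+ replicate 2 or 4 and without Ddx41+/- replicate 7 (Robo4 and Tek each time), and 2 without Ddx41+/- replicate 6 (Itga4 and Robo4). Only Robo4 stayed under 0.05 in all 14 alternative fits.

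**Figure D2:**
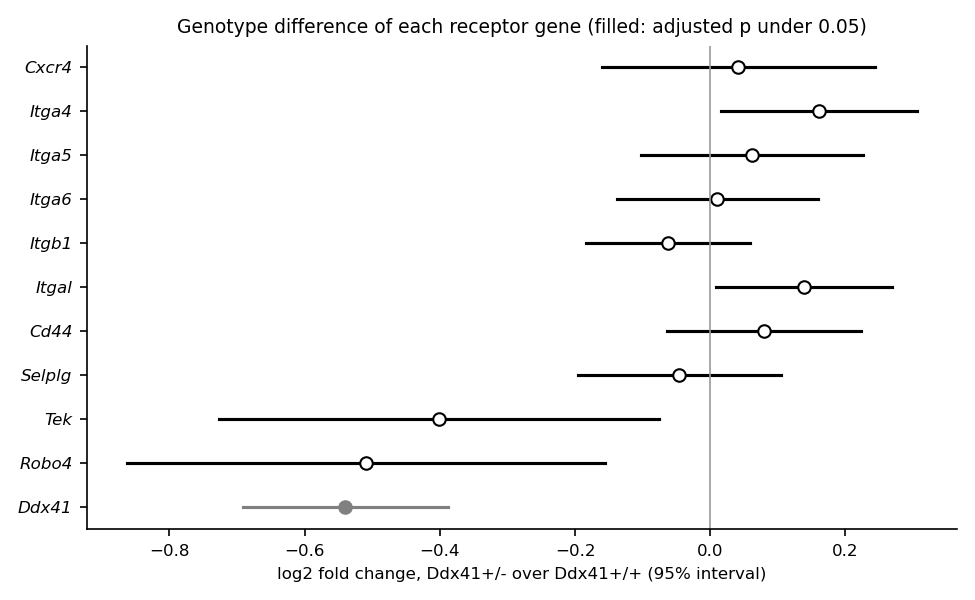
Log2 fold change of each receptor gene in Ddx41+/- over Ddx41+/+ LSK cells, with its 95% interval, and Ddx41 in gray for comparison. A filled symbol marks an adjusted p under 0.05, which Ddx41 alone has; the intervals of Itga4, Itgal, Tek and Robo4 do not cross 0.

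Cxcr4 (chromosome 1, 128588199 to 128592293 in GRCm38), the receptor that draws progenitors toward CXCL12, was at 130.9, 157.3, 165.9 and 137.96 CPM in Ddx41+/+ replicates 1 to 4. In Ddx41+/- replicates 6 to 8 it was at 155.1, 169.8 and 132.1 CPM. The Ddx41+/- values covered almost the same range as the Ddx41+/+ values, and the spread within a genotype, with an SD of 16.3 CPM in Ddx41+/+ and 19.02 CPM in Ddx41+/- samples (n = 4 and 3), was wider than the difference of the means. The Ddx41+/- mean was 102.9% of the Ddx41+/+ mean, with a 95% interval of the fitted ratio from 89.5% to 118.4% (log2 fold change 0.041, SE 0.094, edgeR adjusted p = 0.915). The sign of this difference changed in 3 of the 14 alternative fits.

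The genes that carry the CXCR4 signal or set its ligand and receptor turnover were taken from a list of 24, of which 21 were tested. None passed with edgeR at an adjusted p under 0.05. At an unadjusted p under 0.05 there were 3 of 21 (14.3%), with 1 higher and 2 lower, beside 10.6% of all genes, and the median log2 fold change was -0.021 beside -0.0048 over all genes. S1pr1, the receptor that guides egress toward blood, was at 5.49, 4.27, 4.96 and 3.84 CPM in Ddx41+/+ and at 2.44, 2.996 and 3.49 CPM in Ddx41+/- samples. S1pr1 was the 1 gene of 21 (4.76%) without overlap, a share below the 10.1% of all genes (log2 fold change -0.64, SE 0.23, edgeR adjusted p = 0.326). Dpp4, a peptidase that inactivates CXCL12, was at 80.6% of the Ddx41+/+ mean (edgeR adjusted p = 0.355), and Rgs2, a regulator of G protein signaling, at 116.1% (0.358). Cxcl12 itself, a stromal product, was between 3.44 and 6.30 CPM in all samples.

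Itgb1 (chromosome 8, 128685654 to 128733200) encodes the common beta1 chain that pairs with the products of Itga4, Itga5 and Itga6. It was the steadiest of the set in Ddx41+/- samples, at 277.3, 275.2 and 267.9 CPM in replicates 6 to 8, and at 289.6, 288.3, 295.3 and 268.8 CPM in Ddx41+/+ replicates 1 to 4. Replicate 4 of Ddx41+/+ lay among the Ddx41+/- values. The Ddx41+/- mean was 95.8% of the Ddx41+/+ mean, with an interval from 88.1% to 104.2% (edgeR adjusted p = 0.753).

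Itga4 (chromosome 2, 79255426 to 79333123), the alpha chain of the VCAM1 receptor, was at 325.5, 297.2, 291.2 and 288.5 CPM in Ddx41+/+ replicates 1 to 4. It was at 306.3, 336.9 and 365.5 CPM in Ddx41+/- replicates 6 to 8. Ddx41+/- replicates 7 and 8 were above all Ddx41+/+ samples, but replicate 6 was below Ddx41+/+ replicate 1. The mean was 111.8% of the Ddx41+/+ mean, with an interval from 101.1% to 123.7% (log2 fold change 0.16, SE 0.068, edgeR adjusted p = 0.409). In the annotation 8.04% of the exon bases of Itga4 lie opposite to exons of Cerkl, which had a mean of 99.3 counts.

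Itga5 (chromosome 15, 103344286 to 103366763), the alpha chain of the fibronectin receptor, lay between 68.7 and 77.9 CPM in Ddx41+/+ samples and between 70.1 and 83.3 CPM in Ddx41+/- samples. The ratio was 104.4%, with an interval from 93.1% to 117.01% (edgeR adjusted p = 0.828). Itga6 (chromosome 2, 71745616 to 71858416), a laminin receptor chain, lay between 121.8 and 142.1 CPM in Ddx41+/+ samples and between 124.6 and 142.0 CPM in Ddx41+/- samples. All Ddx41+/- values of Itga6 fell inside the Ddx41+/+ range, and the ratio was 100.7%, with an interval from 90.9% to 111.6% (edgeR adjusted p = 0.976).

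The alpha chains that share Itgb1 were also compared within samples, as each one's share of their summed level per length. Itga4 made up 42.5%, 42.3%, 42.1% and 41.6% of the sum in Ddx41+/+ replicates 1 to 4. In Ddx41+/- replicates 6 to 8 it made up 43.9%, 43.7% and 45.1%. The Ddx41+/- shares were all above the Ddx41+/+ shares (42.1 ± 0.355% in Ddx41+/+ and 44.2 ± 0.772% in Ddx41+/- samples, SD, n = 4 and 3). The shares of Itga5 (27.8% to 31.1%) and Itga6 (25.7% to 29.7%) overlapped between the genotypes. The level of these shares moved with the length used, and the coding length gave Itga4 a mean of 61.3%. The Itga4 share was without overlap between the genotypes under all 3 lengths. By CPM, 10.1% of all genes tested were without overlap. Because a change of length only rescales the same counts, the 3 lengths are not separate evidence. No test was made of the shares, since the same values had been seen gene by gene.

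Itgal (chromosome 7, 127296260 to 127335138), the alpha chain of LFA-1, a leukocyte integrin that binds ICAM family ligands, was at 227.03, 210.1, 220.7 and 210.9 CPM in Ddx41+/+ replicates 1 to 4. It was at 239.5, 253.5 and 224.5 CPM in Ddx41+/- replicates 6 to 8. Replicates 6 and 7 were above all Ddx41+/+ samples and replicate 8 was among them. The ratio was 110.1%, with an interval from 100.6% to 120.5% (log2 fold change 0.14, SE 0.061, edgeR adjusted p = 0.432). Itgal is also made by mature leukocytes, and the part of the higher neutrophil transcripts in Ddx41+/- samples was not tested.

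**Figure D3:**
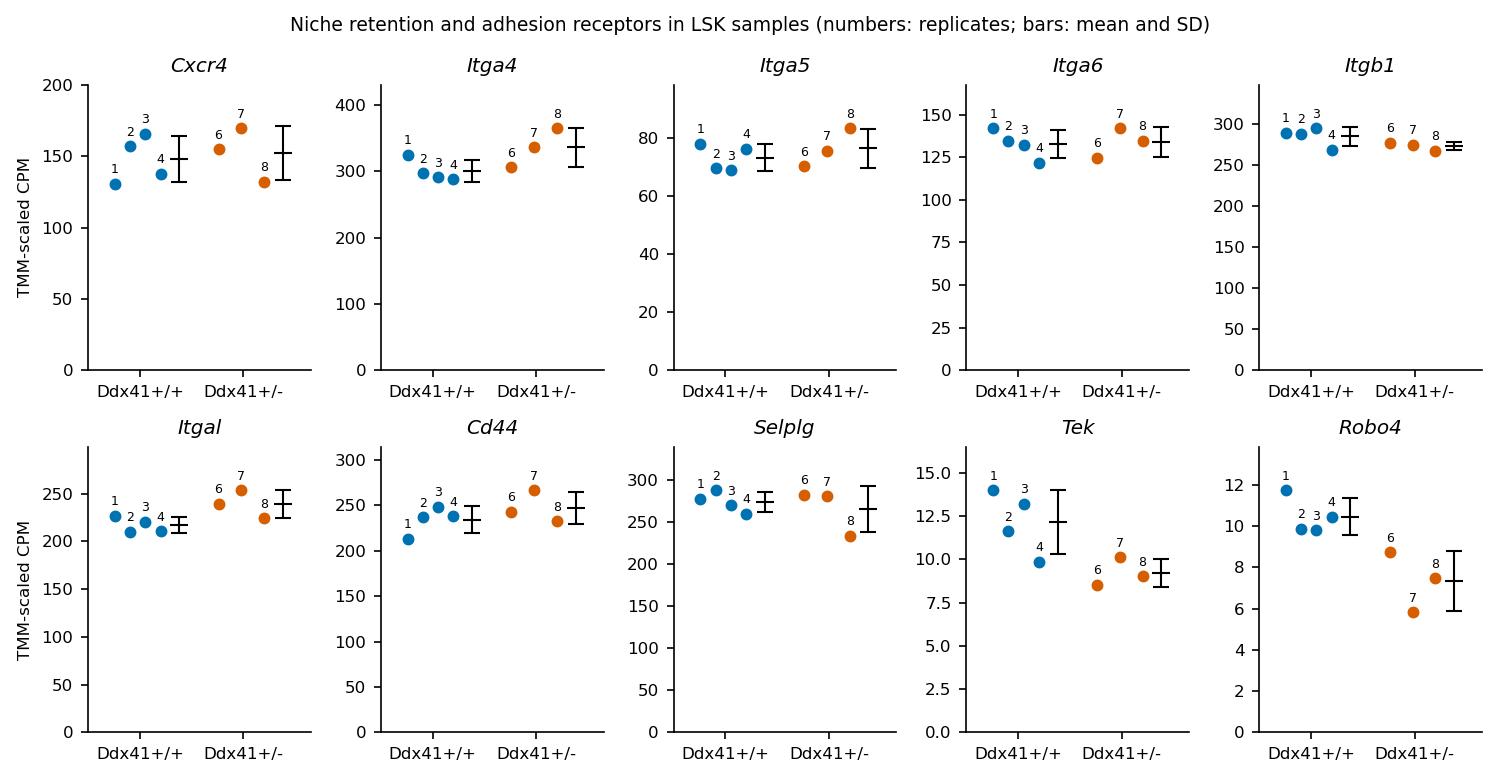
Level of each receptor gene in CPM by genotype, with each axis from 0. Blue points are the 4 Ddx41+/+ and orange points the 3 Ddx41+/- samples, labelled by replicate, and the black bars beside them give the mean and SD. Robo4 is the gene without overlap between the genotypes; Tek overlaps through Ddx41+/- replicate 7 at 10.1 CPM and Ddx41+/+ replicate 4 at 9.86 CPM.

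Among the 21 other integrin subunits, 17 were tested and none passed with edgeR. At an unadjusted p under 0.05 there were 4 of 17 (23.5%), with 3 higher and 1 lower, beside 10.6% of all genes, and 2 of 17 (11.8%) did not overlap, beside 10.1%. The median log2 fold change was 0.0085. Itga2b, the platelet integrin chain, was at 139.6, 112.7, 105.7 and 125.1 CPM in Ddx41+/+ and at 89.6, 92.2 and 108.2 CPM in Ddx41+/- samples (log2 fold change -0.32, SE 0.095, edgeR adjusted p = 0.242). Itga2b is also 1 of the 10 megakaryocyte markers, of which 9 of 9 tested had a log2 fold change below 0, beside 51.2% of all genes. Their summed level lay between 212.5 and 268.3 CPM in Ddx41+/+ samples and between 164.7 and 188.5 CPM in Ddx41+/- samples. Itga2b itself made up 120.8 of the mean sum of 232.8 CPM in Ddx41+/+ samples. It made up 96.7 of 179.3 CPM in Ddx41+/- samples, so the sum is not separate from Itga2b. Of the 9 tested, 3, with Itga2b among them, were lower at an unadjusted p under 0.05, beside 4.93% of all genes. Among them Pf4, which encodes platelet factor 4, passed as lower (edgeR adjusted p = 0.0283), beside 0.0975% of all genes. Gp6 was at 0 in every sample. Itgam, the myeloid chain of Mac-1, was at 120.0% of the Ddx41+/+ mean without overlap (edgeR adjusted p = 0.277), beside the higher neutrophil list, of which it is a member. Itga1, a collagen receptor chain, was at 147.9% (edgeR adjusted p = 0.314).

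Talin, kindlin, the Rap1 module and other proteins activate integrins or tie them to actin. Of 23 listed genes 20 were tested, none passed with edgeR, and 2 (10%) had an unadjusted p under 0.05, both lower, beside 10.6% of all genes. The same 2 genes, Zyx and Itgb1bp1, did not overlap, beside 10.1% of all genes, so that neither share was above that of the whole table. Log2 fold changes of the list ran from -0.22 to 0.20, with a median of -0.015. Zyx, which encodes the focal adhesion protein zyxin, was at 278.9, 263.7, 249.8 and 268.8 CPM in Ddx41+/+ and at 242.9, 222.1 and 216.8 CPM in Ddx41+/- samples, without overlap (log2 fold change -0.22, SE 0.063, edgeR adjusted p = 0.195). Itgb1bp1, which encodes a protein that binds the beta1 tail, was at 87.2% of the Ddx41+/+ mean, also without overlap (edgeR adjusted p = 0.462). Ptk2b, a kinase of the focal adhesion family, was at 91.8% (0.547).

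Cd44 (chromosome 2, 102811141 to 102901665), the hyaluronan receptor, lay between 213.2 and 248.5 CPM in Ddx41+/+ samples and between 232.4 and 266.7 CPM in Ddx41+/- samples. Ddx41+/- replicate 7 had the highest and Ddx41+/+ replicate 1 the lowest value, and the rest overlapped. The ratio was 105.6%, with an interval from 95.6% to 116.7% (edgeR adjusted p = 0.728). Gene totals do not show which splice variants of Cd44 were made.

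Selplg (chromosome 5, 113818536 to 113832644), which encodes the selectin ligand PSGL-1, was at 277.995, 287.7, 269.97 and 259.97 CPM in Ddx41+/+ replicates 1 to 4. In Ddx41+/- samples it was at 282.4 and 280.4 CPM in replicates 6 and 7 and at 233.5 CPM in replicate 8, the lowest of all samples. The ratio was 96.9%, with an interval from 87.3% to 107.5% (edgeR adjusted p = 0.870), and without replicate 8 its sign changed (log2 fold change 0.039).

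The enzymes that build selectin ligands and the partners of CD44 gave 0 of 21 tested genes with edgeR, and 5 (23.8%) at an unadjusted p under 0.05, with 1 higher and 4 lower, beside 10.6% of all genes. The genotypes did not overlap for 3 of 21 (14.3%), beside 10.1% of all genes. The median log2 fold change was 0.05. Tpst2, which sulfates tyrosines of PSGL-1, was at 62.9, 56.9, 60.1 and 58.4 CPM in Ddx41+/+ and at 54.97, 44.3 and 52.2 CPM in Ddx41+/- samples, without overlap (log2 fold change -0.24, SE 0.083, edgeR adjusted p = 0.314). The sialomucin genes Podxl and Cd34 were at 65.02% and 89.2% of the Ddx41+/+ mean and overlapped between the genotypes (edgeR adjusted p = 0.364 and 0.403).

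Tek and Robo4 had the lowest Ddx41+/- levels relative to Ddx41+/+ in the set. Tek (chromosome 4, 94739289 to 94874976) encodes the angiopoietin receptor of stem cells and endothelium. It was at 13.999, 11.6, 13.2 and 9.86 CPM in Ddx41+/+ replicates 1 to 4, and at 8.53, 10.1 and 9.04 CPM in Ddx41+/- replicates 6 to 8. Ddx41+/+ replicate 4 lay below Ddx41+/- replicate 7, and the other values were separated. The ratio was 75.8%, with an interval from 60.5% to 94.8% (log2 fold change -0.40, SE 0.15, edgeR unadjusted p = 0.0186, adjusted p = 0.358).

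Robo4 (chromosome 9, 37401897 to 37415115), a transmembrane receptor of the roundabout family, was at 11.7, 9.86, 9.79 and 10.4 CPM in Ddx41+/+ replicates 1 to 4. It was at 8.73, 5.81 and 7.46 CPM in Ddx41+/- replicates 6 to 8. All Ddx41+/- samples were below all Ddx41+/+ samples. The ratio was 70.2%, with an interval from 54.97% to 89.8% (log2 fold change -0.51, SE 0.17, edgeR unadjusted p = 0.00758, adjusted p = 0.293), and 343 of the genes tested had a smaller p. The lowest sample, Ddx41+/- replicate 7, had 196 counts, and without it the log2 fold change was -0.37 (edgeR adjusted p = 0.659). The adjusted p of Robo4 over the 14 alternatives ran from 0.155 to 0.659 and that of Tek from 0.272 to 0.608.

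Since both genes mark stem cells within the LSK fraction as well as endothelium, the levels of such markers are given beside them. Of 17 long-term stem cell genes tested, 16 had a log2 fold change below 0, beside 51.2% of all genes, and their median was -0.37. At an unadjusted p under 0.05 there were 8 of the 17, all lower, beside 4.93% of all genes as lower. At an edgeR adjusted p under 0.05, 2 of the 17 (Txnip and Mycn) passed, both lower, beside 0.0975% of all genes as lower. The summed level of the 18 listed genes lay between 570.7 and 687.9 CPM in Ddx41+/+ samples and between 473.5 and 530.5 CPM in Ddx41+/- samples, without overlap and with no gene at 0 in all samples. Txnip alone made up 232.4 of the mean sum of 624.1 CPM in Ddx41+/+ samples and 179.1 of 496.9 CPM in Ddx41+/- samples. Of the 12 endothelial genes, 7 reached 1 CPM in any sample, and 6 of 10 tested had a log2 fold change below 0. At an unadjusted p under 0.05, 2 of these 10 were lower (Egfl7 and Cdh5) and 0 higher, beside 4.93% and 5.7% of all genes. None of the 10 passed with edgeR. The summed level of all 12 was 120.5 to 142.8 CPM in Ddx41+/+ and 115.5 to 123.2 CPM in Ddx41+/- samples. Sele was at 0 in every sample, and Cdh5, Cldn5, Fabp4 and Ramp2 were below 1 CPM in every sample. The most abundant genes of that list were Egfl7, Tie1 and Emcn, at means of 64.01, 44.2 and 7.02 CPM, and stem cells also express Egfl7 and Tie1. The endothelial receptor gene Flt1 was at 4.52 to 6.48 CPM in Ddx41+/+ samples and at 5.76 to 8.45 CPM in Ddx41+/- samples (log2 fold change 0.39, edgeR adjusted p = 0.510). Egfl7 was at 60.3 to 73.0 CPM in Ddx41+/+ samples and at 52.6 to 63.6 CPM in Ddx41+/- samples (log2 fold change -0.25, edgeR adjusted p = 0.314). In bulk samples fewer cells of a type and less RNA per cell cannot be told apart, and the part of the stem cell share in the levels of Tek and Robo4 was not tested.

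**Figure D4:**
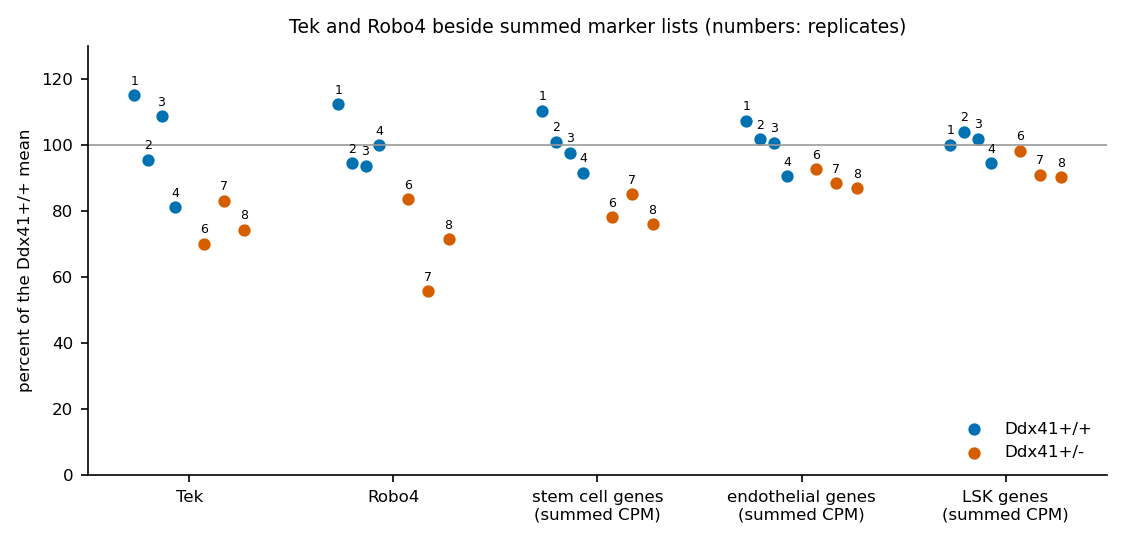
Tek, Robo4 and the summed CPM of the long-term stem cell, endothelial and LSK marker lists, each as a percent of its Ddx41+/+ mean. Blue points are Ddx41+/+ and orange points Ddx41+/- samples, labelled by replicate. Ddx41+/- samples are at 70.04% to 83.05% for Tek, 55.6% to 83.5% for Robo4 and 75.9% to 85.01% for the stem cell list. Txnip is the most abundant gene of the stem cell list.

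The ligands of these receptors are mostly made by other cells, and 11 of 17 listed ligand genes were tested. None passed with edgeR, and 2 (18.2%) had an unadjusted p under 0.05, with 1 higher and 1 lower, beside 10.6% of all genes. The genotypes overlapped for each of the 11, beside 10.1% of all genes without overlap. Angpt1, the TIE2 ligand that progenitors also make, was at 173.7, 156.04, 143.2 and 136.3 CPM in Ddx41+/+ and at 122.5, 131.02 and 138.5 CPM in Ddx41+/- samples. The values of Angpt1 overlapped through Ddx41+/- replicate 8 (log2 fold change -0.22, SE 0.081, edgeR adjusted p = 0.333). Fn1, which encodes fibronectin, was at 141.96% of the Ddx41+/+ mean (edgeR adjusted p = 0.466), and Selp, which encodes P-selectin, at 86.1% (0.560).

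The remaining adhesion and niche receptors held the gene that passed. Of 25 tested genes, 1 (Adgrg1) had an edgeR adjusted p under 0.05, beside 0.217% of all genes (0.0975% as lower). Adgrg1 encodes the adhesion G protein-coupled receptor GPR56 of stem and progenitor cells. Adgrg1 was at 1292, 1161, 1050.01 and 1060 CPM in Ddx41+/+ replicates 1 to 4 and at 892.3, 846.8 and 907.2 CPM in Ddx41+/- replicates 6 to 8. It fell to 77.3% of the Ddx41+/+ mean (log2 fold change -0.37, SE 0.072, edgeR adjusted p = 0.0489). This call was at the threshold. The adjusted p of Adgrg1 was 0.0501, 0.174 and 0.0618 without Ddx41+/+ replicate 1, 2 or 4, and 0.0932, 0.1995 and 0.104 without Ddx41+/- replicate 6, 7 or 8. It was 0.0468 without Ddx41+/+ replicate 3, and 0.000414 with DESeq2.

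In the same list 7 of 25 genes (28%) had an unadjusted p under 0.05, with 1 higher and 6 lower, beside 10.6% of all genes, and 6 (24%) did not overlap, beside 10.1%. Prom1, which encodes the progenitor antigen CD133, was the higher one, at 41.2, 45.6, 39.9 and 42.5 CPM in Ddx41+/+ and 51.01, 50.2 and 57.5 CPM in Ddx41+/- samples, without overlap (log2 fold change 0.32, SE 0.082, edgeR adjusted p = 0.138). DESeq2 gave Prom1 an adjusted p of 0.0333. Esam, an adhesion molecule of stem cells and endothelium that the stem cell list also holds, was at 74.6% of the Ddx41+/+ mean without overlap (edgeR adjusted p = 0.324). The 6 lower genes also included Procr, which the stem cell list holds as well (edgeR unadjusted p = 0.0188). Another was Cdh5 (0.0241), which was below 1 CPM in every sample and is counted in the endothelial list too.

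Over the 6 lists together, 115 of 135 genes were tested. With edgeR 0 passed as higher and 1 as lower, beside 0.217% of all genes in either direction and 0.0975% as lower. At the single-gene level, 7 higher and 16 lower genes, Adgrg1 included, had an unadjusted p under 0.05, or 20.0% of those tested, beside 5.7% higher and 4.93% lower, or 10.6% in all, over the whole table. The median log2 fold change over the 6 lists was -0.0039, close to that of all genes. The number at an unadjusted p under 0.05 was 14 without Ddx41+/+ replicate 1, the sample with the highest Tek, Robo4 and Adgrg1, and between 17 and 23 in the other fits without 1 sample.

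**Figure D5:**
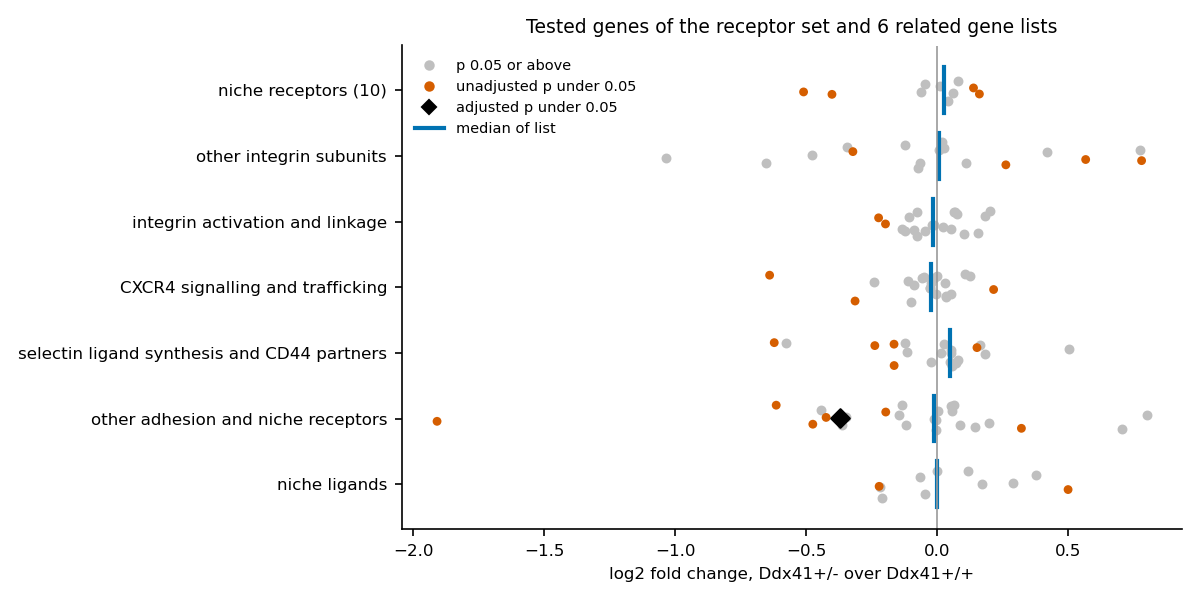
Log2 fold change in Ddx41+/- over Ddx41+/+ LSK cells of each tested gene of the receptor set and of 6 related lists. Gray points have an unadjusted p of 0.05 or above, orange points one under 0.05, the black diamond (Adgrg1) an adjusted p under 0.05, and the blue line is the median of the list. The medians of all 7 groups lie between -0.021 and 0.05.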

How the data were processed

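The authors isolated RNA from sorted LSK cells, prepared poly(A)-selected Illumina libraries and deposited a table of raw read counts for 24421 gene symbols, without normalization. The submitters' processing notes name HISAT2 2.0.5, featureCounts 1.5.2, FastQC 0.11.7 and the build mm10. The labels name a stranded kit and the study's methods an earlier kit version, and the strand setting is not given in the sources used here. A Ddx41+/- library numbered 5 had been removed from the deposited counts, for a reason not given in the sources used here, and was not analysed here. All 7 columns were used, which left 0 unused.

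Samples were grouped by genotype (4 Ddx41+/+ and 3 Ddx41+/-). The whole table was fitted in edgeR 4.0.16 (R 4.3.3) with its robust quasi-likelihood model after TMM scaling and filterByExpr, and each two-sided p was corrected by the Benjamini-Hochberg procedure for the 13340 genes tested. CPM were computed from TMM-scaled totals. Each SE was the size of the log2 fold change divided by the root of its F value, and intervals are 95%. Exon lengths and positions came from GENCODE M21 (GRCm38). Counting error is smallest for the deep genes and largest for Robo4 and Tek. Scripts were tested on simulated data. Alternatives were DESeq2 1.42.0, voom of limma 3.58.1 with sample quality weights, other scalings, no filter, a non-robust fit, each sample left out and other lengths.

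The 10 receptors and all lists were chosen with earlier results of these data known. Besides the receptors and Ddx41, the genes named were, of each related list, those with an adjusted p under 0.05 and the 3 with the smallest p at a mean of at least 1 CPM, and the most abundant genes of marker lists. Ly6a, Mmp9, Mycn, Procr, Blnk, Gp6, Flt1 and Cerkl were named after their values were seen. So were the endothelial, T and NK genes below 1 CPM and the globin genes. Marker lists of stroma, macrophages, B cells, T and NK cells, and erythroid cells were summed as well. Their summed levels were 30.7 to 36.2, 206.4 to 239.3, 49.5 to 71.4, 236.8 to 288.7 and 133.0 to 249.6 CPM in Ddx41+/+ samples and 25.7 to 55.7, 208.6 to 285.03, 66.8 to 91.1, 265.1 to 295.7 and 189.6 to 212.8 CPM in Ddx41+/- samples. Nkg7 alone had a mean of 253.4 CPM in Ddx41+/+ samples, of a mean T and NK sum of 269.7 CPM. The T cell genes Cd3e, Cd3d, Cd3g and Cd8a, and Gzma, were below 1 CPM in every sample. Csf1r had a mean of 124.1 CPM of the mean macrophage sum of 220.3 CPM in Ddx41+/+ samples. Of 10 B lineage genes tested, 4 were higher in Ddx41+/- samples at an unadjusted p under 0.05, beside 5.7% of all genes. Of the 10, 1 (Blnk) passed (edgeR adjusted p = 0.0401), beside 0.217% of all genes. Of 10 erythroid genes in the table, 4 (Hba-a1, Hba-a2, Hbb-bs and Hbb-bt) were listed at 0 in every sample.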

Additional observations from a re-analysis of the deposited data

How the results depend on the processing

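The number of receptors with an adjusted p under 0.05 was 0 in all 14 alternative fits. No paired analysis was possible because the genotypes share no replicate number. The sign of small differences changed for Cxcr4 under limma-voom (-0.017) and without Ddx41+/+ replicate 1 (-0.014) or Ddx41+/- replicate 7 (-0.044), for Itga6 under library totals only (-0.0046) and without Ddx41+/+ replicate 4 (-0.029) or Ddx41+/- replicate 7 (-0.036), and without Ddx41+/- replicate 8 for Itga5 (-0.0064) and Selplg (0.039), all as log2 fold changes. With 1 sample left out, these ran up to 0.13 (Cxcr4), 0.12 (Itga5) and 0.058 (Itga6), and down to -0.093 (Selplg). The cause was not tested. Itga4, Itgal, Itgb1, Cd44, Tek and Robo4 kept their sign in all 14. The number of all genes passing (29, 16 higher and 13 lower) was 152 with DESeq2, 91 with no filter, 15 with library totals only (6 higher and 9 lower) and 14 with the non-robust fit, and 7 to 41 when 1 sample was left out, with 7 without Ddx41+/+ replicate 2, 16 without Ddx41+/+ replicate 3, 14 without Ddx41+/- replicate 7 and 9 without Ddx41+/- replicate 8. The higher and lower calls were 15 and 9 under median-of-ratios scaling. Of the related lists 1 gene passed, Adgrg1, and this was 2 with DESeq2, 0 with median-of-ratios scaling (adjusted p of Adgrg1 0.0534), library totals only (0.0779) and the non-robust fit (0.0726), and 0 to 1 when 1 sample was left out. By the longest transcript and by the coding length, 3 and 3 of the 10 receptors kept their rank by level per length, and the mean shares of Itga4, Itga5 and Itga6, at 43.04%, 28.8% and 28.2% by all exons, were 40.3%, 21.1% and 38.6% and 61.3%, 14.2% and 24.5%. With 4 against 3 samples and 196 to 579 counts, differences of Tek and Robo4 are less precisely known than those of the other receptors. By Dixon's ratio 0 of 11 values (the receptors and Ddx41 in Ddx41+/+ samples) held an outlier, and the group of 3 is too small for it.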
